A study of Mus musculus with 30 samples.

Results

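Of 5669 regions bound by Suz12 in both lists from mouse embryonic stem cells without a knock-down, 852 overlapped no EPOP region. These 852 regions, 15.0% of all Suz12 regions, are called non-EPOP regions here and were set beside the 4817 EPOP-bound Suz12 regions. A Suz12 region was a merged interval that held a peak of both Suz12 lists, an EPOP region was built in the same way from both EPOP lists, and an overlap of 1 bp counted. The regions were thus chosen by the peak calls of the Suz12 and EPOP lists without knock-down, and values from those 4 lists describe the regions and test nothing.

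Suz12 is a core subunit of Polycomb repressive complex 2 (PRC2), the enzyme complex that trimethylates lysine 27 of histone H3 (H3K27me3) at silent developmental genes. EPOP is a PRC2 accessory protein of pluripotent cells that also binds the Elongin BC dimer, of which EloB is a subunit. Jarid2 is an accessory protein of another form of PRC2. In embryonic stem cells many PRC2 targets are bivalent promoters, which carry H3K27me3 together with H3K4me3, the mark of active and poised promoters.

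The cells were E14Tg2A, a male mouse embryonic stem cell line, kept undifferentiated without feeders in serum and LIF. Chromatin immunoprecipitation with sequencing (ChIP-seq) lists were used for EPOP, Suz12, H3K27me3, H3K4me3, EloB and Jarid2. Without knock-down there were 2 lists each for EPOP, Suz12, H3K4me3 and EloB and 1 each for H3K27me3 and Jarid2. Upon EPOP knock-down, made with a lentiviral short hairpin RNA and puromycin selection, there were 2 lists for EPOP and EloB and 1 each for Suz12, H3K27me3, H3K4me3 and Jarid2. Upon EloB knock-down, made with transfected small interfering RNA, there was 1 list each for Suz12 and H3K4me3. For EloB the chromatin was also crosslinked between proteins, and for EloB and EPOP the antibody or its lot changed from replicate 1 to replicate 2. The labels do not say whether replicates were separate cultures, so their spread may be technical. Markers of the cell type were not checked here, because no gene was assigned to a region.

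The lists differed in length and in strength, and this bears on every count of calls. Each peak carries a score given by the authors. How it was computed is not stated in the labels or headers; it starts at 50 in every list, and the read depth behind it is unknown. The EPOP lists without knock-down held 11072 and 6547 peaks, and those upon knock-down 108 and 818. Of the non-EPOP regions 15 and 14 held a peak in those knock-down lists, beside 61 and 501 of all 5669 Suz12 regions (1.08% and 8.84%). One label of the first EPOP list upon knock-down names IgG, whereas its title and antibody name EPOP, and the title was followed. The file headers name Suz12 replicate 1 "si ct" and replicate 2 "sh ct". The name of EPOP replicate 2 also carries "sh ct", and that of EPOP replicate 1 does not. The labels do not tie any of these lists to small interfering RNA or to a hairpin. Whether the 2 EPOP lists came from cells treated alike is thus not known. No region is tied to a gene or shown by sequence, because no mm9 genome or annotation was used here.

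Most non-EPOP regions were not devoid of EPOP signal. A peak of EPOP replicate 1 alone lay in 608 of them (71.4%), and a peak of replicate 2 alone in 100 (11.7%). Peaks of both replicates that did not touch each other lay in 4. No EPOP peak of either list lay in 140, or 16.4% (Wilson 95% interval 14.1 to 19.1%), so the label "without EPOP" holds in full for these 140 and otherwise means without an EPOP region found in both replicates. The EPOP peaks that the regions held were low: the median score was 110 in replicate 1 and 77.4 in replicate 2, against 362 and 300.4 in EPOP-bound regions.

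The non-EPOP regions were also the weak and narrow end of the Suz12 lists. Their median Suz12 score was 129 in replicate 1 and 107 in replicate 2, against 1527 and 537 in EPOP-bound regions. Their width ranged from 427 to 9173 bp with a median of 1386 bp, against 2534 bp. All Suz12 regions were ranked by the lower of the 2 Suz12 scores and divided into 10 bins of equal size, with bin 1 the weakest. Bins 1 and 2 contained 565 of the 852, and 49.8% of their regions were non-EPOP. Bins 3 and 4 contained 236 (20.8% of their regions), and the remaining 3401 regions contained 51 (1.50%). Because of this skew, each difference in share given with an interval is also given within these score bins. The bins were weighted by their number of non-EPOP regions. Comparisons of mark classes, peak scores and widths with EPOP-bound regions were not made within score bins.

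Few of the regions were near misses of the overlap rule. The median distance to the nearest EPOP region was 86259 bp, the first quartile 19438 bp and the lowest distance 17 bp. Within 1000 bp lay 31 of the regions (3.64%), and within 20000 bp lay 219 (25.7%). The non-EPOP regions nearest to an EPOP region that are named here, chr11:101121434-101123001, chr9:67678065-67678792 and chrX:166429314-166434542 (mm9), lay 45, 47 and 51 bp from it. On the other side of the rule, the EPOP-bound regions chr12:114111632-114113310, chr4:146035071-146035583 and chr17:35575810-35576743 overlapped one by 203, 404 and 433 bp.

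Histone marks separated the non-EPOP regions into 4 classes. H3K4me3 alone marked 435 of them (51.1%) and both marks, the bivalent combination, marked 350 (41.1%). H3K27me3 alone marked 42 (4.93%) and neither mark 25 (2.93%). EPOP-bound regions had another order, with both marks in 4236 (87.9%) and H3K4me3 alone in 510 (10.6%). An H3K4me3 region here is one found in both H3K4me3 lists, so 19 of the 42 regions with H3K27me3 alone and 14 of the 25 with neither mark still held a peak of H3K4me3 replicate 2.

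**Figure D1:**
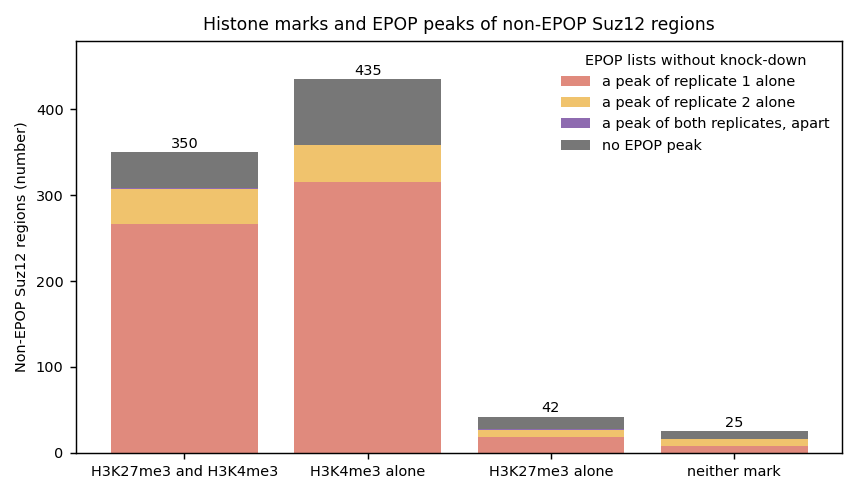
Number of non-EPOP Suz12 regions (vertical axis) by histone mark class, with colours for the EPOP peaks they held in the 2 EPOP lists without knock-down. The class with H3K4me3 alone is the tallest (435), and EPOP replicate 1 alone makes up most of the 2 tall bars.

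H3K27me3 was called less often in non-EPOP than in EPOP-bound regions, also at like Suz12 score. It was called in 392 of 852 (46.0%, 42.7 to 49.4%) and in 4294 of 4817 EPOP-bound regions (89.1%), with 82.7% over all Suz12 regions. The difference of -43.1 percentage points had a 95% Newcombe interval of -46.6 to -39.7. Within score bins it was -24.1 points (-28.5 to -19.7), and within 10 bins of the width -27.8 points. Regions of like Suz12 score thus also differed, as did regions of like width. Score and width were not held alike together. These intervals cover the counting of regions only; regions of 1 library are not replicates, and no p-value was computed from them.

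The lower share was found in each of score bins 1 to 6. In bins 1 and 2 H3K27me3 was called in 41.4% of non-EPOP and 66.3% of EPOP-bound regions. In bins 3 and 4 the shares were 53.8% and 79.4%, and in bins 5 and 6 they were 55.6% (25 of 45) and 90.8%. Over all bins together, where H3K27me3 was present its score was lower too, with a median of 91.8 in non-EPOP and 227 in EPOP-bound regions.

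H3K4me3 differed less. Its regions covered 785 non-EPOP regions (92.1%) and 4746 EPOP-bound regions, against 97.6% over all Suz12 regions. The difference was -6.39 points (-8.42 to -4.72) and, within score bins, -3.50 points (-5.81 to -1.19). Without H3K4me3 replicate 1 it was -3.74 points. It was -14.9 points without EPOP replicate 2, and -16.8 and -24.8 points without Suz12 replicate 1 and 2, each set holding other regions. The H3K4me3 regions were 1789 bp wide at the median in non-EPOP and 2125.5 bp in EPOP-bound regions, and within the non-EPOP set they were wider where H3K27me3 was missing (1955 bp) than where it was present (1630.5 bp).

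H3K4me3 calls at non-EPOP regions stayed near their number in each library. The single lists had a peak in 790 and 818 regions without knock-down (beside 97.6% and 99.2% of all Suz12 regions). A peak was found in 807 upon EPOP knock-down (beside 98.6%) and in 819 upon EloB knock-down (beside 99.2%), so both knock-down counts lay within or next to the range of the control lists. The median log2 width ratio upon EPOP knock-down was 0.075 to replicate 1 and -0.072 to replicate 2, less than the 0.16 between the control lists. Upon EloB knock-down it was 0.19 to replicate 1, above the ratio between the control lists, and 0.039 to replicate 2. In EPOP-bound regions the EloB knock-down ratios were 0.19 and 0.037.

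**Figure D2:**
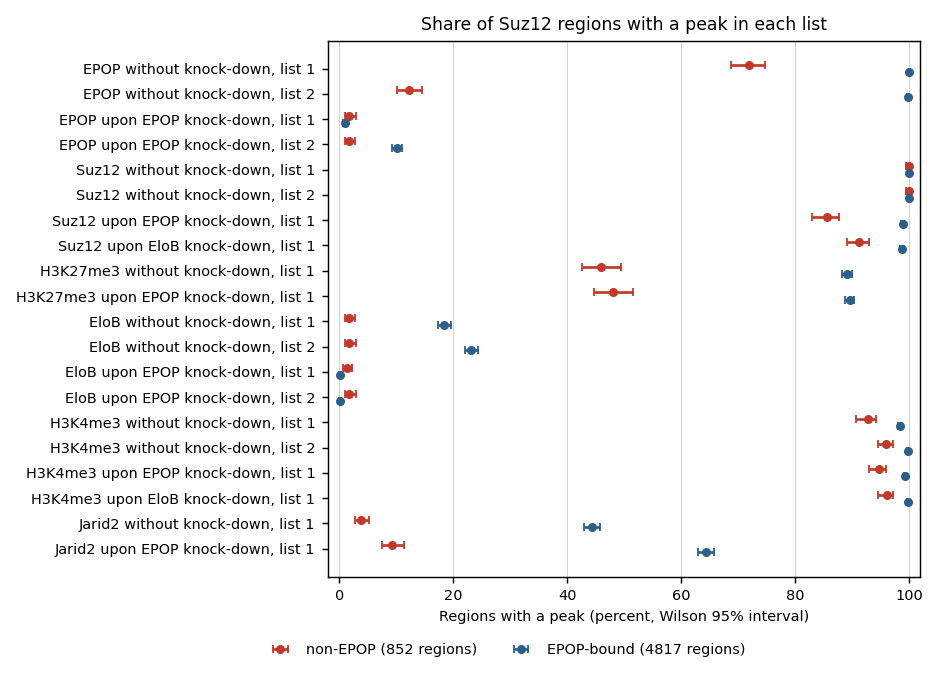
Share of Suz12 regions with a peak in each of the 20 lists (horizontal axis, percent), for non-EPOP regions in red and EPOP-bound regions in blue, with Wilson 95% intervals. The points lie far apart for H3K27me3 and Jarid2 and close together for H3K4me3; the EPOP and Suz12 lists without knock-down were used by the rule.

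The strongest regions of each class are given here as single loci. They were chosen for high Suz12 scores and do not stand for the set, whose median lower Suz12 score was 87.3. At chr8:35867789-35873646, a bivalent region of 5858 bp, the control lists gave Suz12 scores of 3100 and 1718, the EPOP knock-down 1851 and the EloB knock-down 3100. EPOP scored 704 there in replicate 1 and was not called in replicate 2, and H3K27me3 scored 448 in the control and 512 in the EPOP knock-down. At chr14:68741165-68744275 Suz12 scored 3100 and 1015, and EPOP scored 890 in replicate 1 alone. Both loci thus combined high Suz12, a clear EPOP peak in replicate 1 and none in replicate 2.

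Among regions with H3K4me3 alone, chr2:132704067-132705924 had the highest lower Suz12 score, with 489 and 779 in the control lists and 1014 upon EPOP knock-down. Its H3K4me3 scores were 1751 and 2977, and it had no H3K27me3 peak until EPOP knock-down, where one scored 239. Among regions with H3K27me3 alone, chr17:35105861-35107135 held no EPOP, EloB, Jarid2 or H3K4me3 peak in any list; Suz12 scored 427 and 259 and H3K27me3 210. This locus carried Suz12 and its mark and no other measured target. Among regions with neither mark, chr11:63701908-63702859 was the strongest, with Suz12 scores of 393 and 134, an EPOP score of 68.5 in replicate 1 and an H3K4me3 peak in replicate 2 alone of the control lists. The next, chr10:12810095-12811372, was the 1 region of the 25 with Jarid2 without knock-down. It had Suz12 scores of 127 and 661 and Jarid2 scores of 220 without and 190 upon EPOP knock-down, with no EPOP peak in any list and an EloB peak of 65.7 in replicate 2 upon EPOP knock-down.

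**Figure D3:**
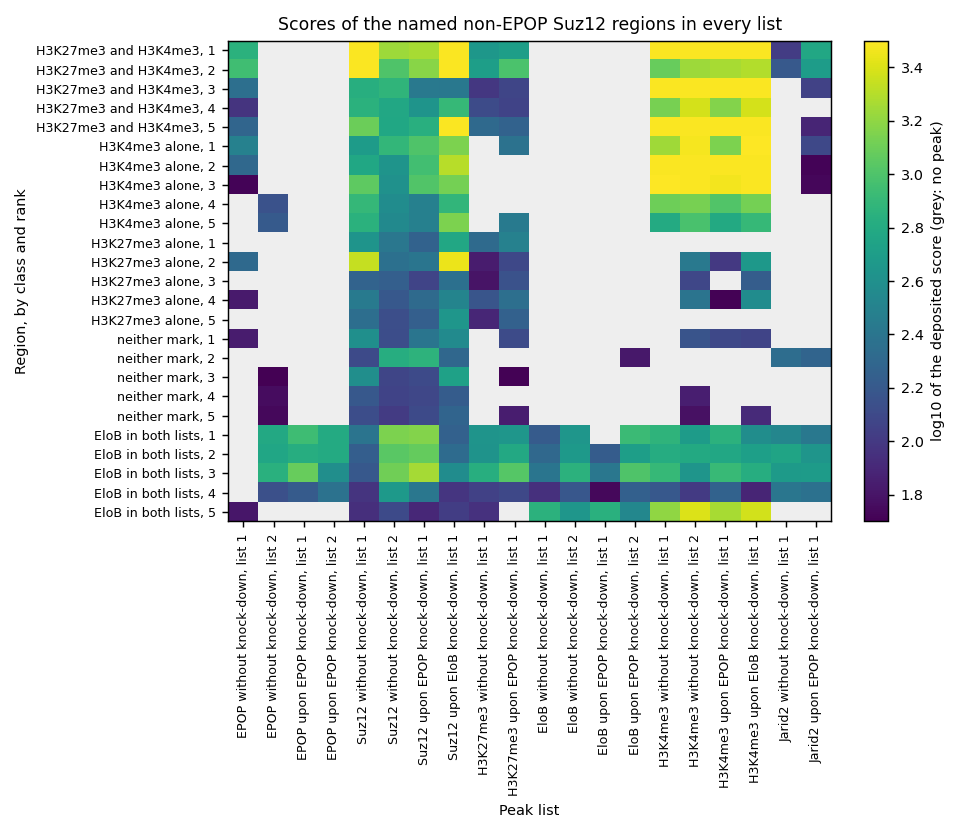
Base-10 logarithm of the deposited score (colour; grey where no peak was called) of 25 named non-EPOP regions in each of the 20 lists, with 5 regions per mark class and 5 with EloB in both lists without knock-down. The 2 EPOP columns without knock-down are seldom filled in the same row, and 4 of the 5 EloB rows are filled across nearly all lists.

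Jarid2 was rare in non-EPOP regions. Without knock-down it was called in 32 of 852 (3.76%) and in 2139 EPOP-bound regions (44.4%), against 38.3% over all Suz12 regions, a difference of -40.6 points (-42.4 to -38.6). Jarid2 calls were more frequent at higher Suz12 scores, however, and within score bins the difference had the other sign, 1.36 points (-0.16 to 2.88), with an interval that includes 0. In bins 1 and 2 Jarid2 was called in 15 non-EPOP (2.65%) and 4 EPOP-bound regions (0.703%), and 8 of those 15 were regions with a peak in 16 or more of the 20 lists, described below.

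Upon EPOP knock-down the Jarid2 list was longer and more non-EPOP regions held a peak, 79 of 852 (9.27%, against 56.1% over all Suz12 regions). Of the 32 with a peak before, 26 had one upon knock-down. Of the 820 without one, 53 had one upon knock-down (6.46%), against 994 of 2678 EPOP-bound regions (37.1%) and 29.9% over all Suz12 regions without a Jarid2 peak before. The difference was -30.7 points (-33.0 to -28.0) and, within score bins, -2.11 points (-4.00 to -0.23), or -3.93 points (-5.87 to -1.99) with 4 bins. With lists cut to equal length it was -14.2 points.

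Jarid2 peaks upon knock-down appeared in the non-EPOP regions with more Suz12. They were called anew in 0.364% of those in bins 1 and 2, 14.7% in bins 3 and 4 and 36.6% (15 of 41) in bins 5 and 6. In EPOP-bound regions the counts were 15 of 565, 148 of 872 and 498 of 884. At chr8:35867789-35873646 the Jarid2 score was 105 without and 603 upon knock-down, and at chr14:68741165-68744275 it was 160 and 498. New peaks at chr4:149421404-149424596 and chr13:54396552-54399296, both bivalent, scored 114 and 77.2. With 1 Jarid2 list per condition these values compare 2 libraries, with no replicate check.

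Suz12 itself was called again in most non-EPOP regions in the knock-down libraries, which the rule did not use. Upon EPOP knock-down 729 of 852 (85.6%, 83.0 to 87.8%) held a Suz12 peak, against 98.9% of EPOP-bound and 96.9% of all Suz12 regions. The difference was -13.3 points (-15.9 to -11.1) and, within score bins, -7.76 points (-10.7 to -4.80). Upon EloB knock-down 777 (91.2%) held one, against 98.8% of EPOP-bound and 97.7% of all Suz12 regions. That difference was -7.62 points (-9.73 to -5.86), and within score bins it depended on their number: -1.96 points (-4.62 to 0.70) with 10 bins, an interval that includes 0, and -3.27 points (-5.66 to -0.89) with 4 bins.

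Most Suz12 peaks that were not called again belonged to the weakest regions. In bins 1 and 2 a peak was found upon EPOP knock-down in 79.6% of non-EPOP and 91.7% of EPOP-bound regions, and in bins 3 and 4 in 97.0% and 99.3%. The strongest non-EPOP region without a Suz12 peak upon EPOP knock-down lay on the mitochondrial sequence, with Suz12 scores of 3100 and 409 in the control lists and 245 upon EloB knock-down. Of those on the chromosomes other than 18, the strongest, chr3:34561028-34563827, had scored 137 and 145 without knock-down and scored 577 upon EloB knock-down. The next, chr15:8659262-8661079, had scored 136 and 173, and scored 88.3 upon EloB knock-down. Without Suz12 replicate 1 or 2, where regions of a single Suz12 list enter, the EPOP knock-down difference was -35.0 and -41.2 points and the EloB knock-down difference -50.0 and -17.9 points. Without EPOP replicate 2 the EloB knock-down difference was -4.97 points.

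The width of Suz12 peaks that were called again was compared with each control list. Upon EPOP knock-down the median log2 ratio of summed peak width was -0.18 against replicate 1 and 0.15 against replicate 2, and the 2 control lists differed from each other by -0.33 (replicate 2 over replicate 1). For the EPOP knock-down the direction thus depended on the control list, in EPOP-bound regions too (-0.25 and 0.13). Upon EloB knock-down the ratio was above 0 against both control lists, 0.10 against replicate 1 and 0.45 against replicate 2 in 777 non-EPOP regions, beside 0.036 and 0.46 in EPOP-bound regions. Of the 2 Suz12 control lists, replicate 2 is the one whose header reads "sh ct", and the EPOP knock-down was made with a hairpin.

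**Figure D4:**
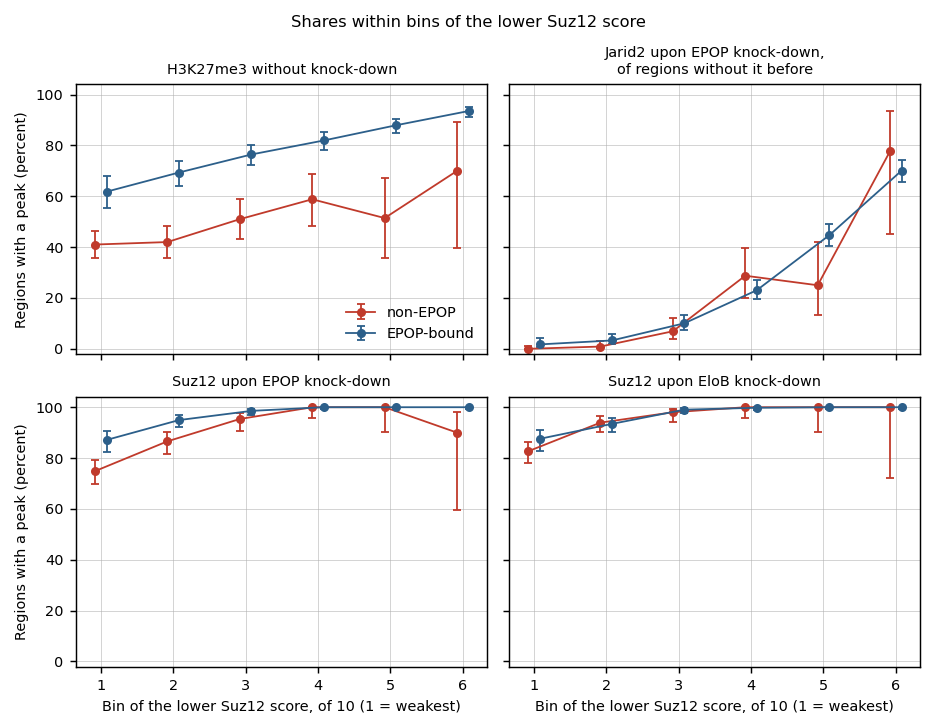
Share of regions with a peak (vertical axis, percent, Wilson 95% intervals) in the lowest 6 of 10 bins of the lower Suz12 score (horizontal axis), for non-EPOP regions in red and EPOP-bound regions in blue. The H3K27me3 curves stay apart in the bins shown, and the Jarid2 and EloB knock-down curves mostly overlap. In bin 5 the Jarid2 shares were 25% of 32 non-EPOP and 44.7% of 479 EPOP-bound regions.

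H3K27me3 calls in non-EPOP regions differed between the libraries without and upon EPOP knock-down, while their number stayed near the same. There was no other control list to show how far such calls differ without a knock-down. There were 392 calls without and 410 upon knock-down (48.1%, against 83.3% over all Suz12 regions). Of the 392, 284 were called again (72.4%), against 94.2% in EPOP-bound regions and 92.4% over all Suz12 regions with the mark. This difference of -21.7 points (-26.4 to -17.5) was -4.27 points (-9.69 to 1.15) within the 10 score bins and -6.90 points (-12.0 to -1.76) within 4 score bins, so whether its interval includes 0 depends on the bins. Without EPOP replicate 2 it was -6.94 points.

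New H3K27me3 calls were also fewer in non-EPOP regions. Of the 460 without the mark, 126 had it upon EPOP knock-down (27.4%), against 271 of 523 EPOP-bound regions (51.8%) and 40.4% over all Suz12 regions without it. The difference was -24.4 points (-30.2 to -18.4), -10.5 points (-17.1 to -3.87) within score bins and -10.2 points without EPOP replicate 2. In regions with H3K4me3 alone, 114 of 435 had a new H3K27me3 peak (26.2%), beside 51.4% of the EPOP-bound regions of that class. The median lower Suz12 score of these 435 was 83.2, against 151.6 in the EPOP-bound class, and the pair was not compared within score bins. At regions called in both conditions the median log2 width ratio was 0.16 in 284 non-EPOP and 0.18 in 4044 EPOP-bound regions. There was 1 H3K27me3 list per condition.

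The 4 mark classes differed in how often Suz12 was called upon knock-down. Upon EPOP knock-down the share was 87.1% in bivalent regions, 86.9% with H3K4me3 alone, 71.4% (30 of 42) with H3K27me3 alone and 64% (16 of 25) with neither mark. Upon EloB knock-down it was 93.7%, 88.5%, 97.6% and 92%. In EPOP-bound regions the counts upon EPOP knock-down were 4203 of 4236, 495 of 510, 54 of 58 and 12 of 13 in the same order. Their shares also fell in that order, so it was not particular to non-EPOP regions. Upon EloB knock-down these EPOP-bound counts were 4198, 491, 58 and 13. Within the non-EPOP set the order of the classes was not the same in the 2 knock-downs, and the difference between classes was not tested. Suz12 scores also differed between the non-EPOP classes, with a median lower score of 97.1, 83.2, 67.0 and 71.5 in the same order.

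The 140 regions without an EPOP peak in either list without knock-down were read beside the 608 with a peak of EPOP replicate 1 alone. This is a description, since the EPOP lists chose them. H3K27me3 was called in 39.3% and 46.9%, and an H3K4me3 region covered 83.6% and 95.7%. Suz12 was called upon EPOP knock-down in 75.7% and 87.8%, and upon EloB knock-down in 91.4% and 90.5%. A new Jarid2 peak was found in 3 of 138 and 40 of 593. The 140 had lower Suz12 scores, with a median lower score of 69.7 against 91.7.

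EloB was nearly absent from non-EPOP regions. Without knock-down 903 and 1131 of all 5669 Suz12 regions held an EloB peak (15.9% and 20.0%). The non-EPOP counts were 14 and 15 of the 852, or 14.5 ± 0.707 (SD, n = 2 lists). Upon EPOP knock-down 13 and 18 of all Suz12 regions held one (0.229% and 0.318%), and most of these were non-EPOP. The non-EPOP counts were 11 and 15, or 13 ± 2.83 (SD, n = 2 lists). The ratio of the means was 0.897 (two-sided exact permutation test over lists, p = 1), and the ranges of the conditions overlapped. The EloB lists held 1296 and 1542 peaks without and 164 and 127 upon knock-down, and with lists cut to equal length by score the direction turned, with 2 and 5 regions against 8 and 15, a ratio of 3.29. Of the EPOP-bound regions 889 and 1116 held an EloB peak without and 2 and 3 upon knock-down, a ratio of 0.00249 (two-sided exact permutation test, p = 0.333, the smallest p that 2 lists against 2 allow).

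EPOP-bound regions as weak as most non-EPOP regions held no replicated EloB peak, and a few non-EPOP regions did. In bins 1 and 2 EloB was called in both lists without knock-down in 0 of 569 EPOP-bound regions, for which the Wilson interval reaches 0.671%, and in 9 of 565 non-EPOP regions. In bins 3 and 4 the counts were 0 of 898 and 3 of 236.

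Most of the few EloB peaks lay in regions that were called in nearly every library. A peak in 16 or more of the 20 lists was found in 11 non-EPOP regions, beside 14.3% of all Suz12 regions. The 20 lists include the EPOP and Suz12 lists that the rule used. The rule left few non-EPOP regions with peaks of both EPOP lists, so the lower share is partly fixed by the rule. Of these 11, 10 were among the 13 with EloB in both lists without knock-down. All 11 held a peak of EPOP replicate 2 and none of replicate 1, and all 11 held a peak in both EPOP lists upon EPOP knock-down and in both Jarid2 lists. They lay close together: 6 between 3.002 and 3.037 Mb of chromosome 9, 3 between 98.502 and 98.508 Mb of chromosome 2, and the others at chr9:35112420-35113455 and chr6:103598853-103599594. This count of lists was chosen after the values were seen.

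At chr9:35112420-35113455 EloB scored 202 and 464 without and 168 and 515 upon EPOP knock-down. EPOP scored 581 in replicate 2 and 659 and 627 upon EPOP knock-down, so its score was not lower where EPOP was depleted. Suz12 scored 174 in replicate 1 and 212 upon EloB knock-down, but 1101 in replicate 2 and 1193 upon EPOP knock-down, so the control lists already differed.

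Without these 11 regions EloB was called in 4 and 4 regions without and 2 and 4 upon EPOP knock-down, a ratio of 0.75. Of these, 3 held EloB in both lists without knock-down: chr9:3018227-3019590, within the same stretch of chromosome 9, a region of the mitochondrial sequence, and chr19:10378474-10379708. The mitochondrial region and the one on chromosome 19 held it in all 4 lists. The first of the 3 and the mitochondrial region are named after their values were seen. The region on chromosome 19 was bivalent, with peaks in 14 lists. EloB scored 722 and 441 there without and 692 and 343 upon EPOP knock-down, while Suz12 scored 88.2 and 127. EloB was thus called in all 4 lists at a locus of low Suz12, with EPOP called at 64.7 in replicate 1 alone. The 11 regions also made up 11 of the 32 regions with a Jarid2 peak without knock-down, which left 21 among the other 841.

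Chromosome X held more than its share of non-EPOP regions. Of 136 Suz12 regions on X, 54 were non-EPOP (39.7%, 31.9 to 48.1%), against 797 of 5532 on the autosomes (14.4%), where single chromosomes ranged from 6.86 to 22.5%. The excess was seen at like Suz12 score: with 4 score bins of equal size, 82.9% of the X regions and 45.5% of the autosomal regions in the weakest bin were non-EPOP, and in the bin above it 52.2% and 11.2%. The rule used the EPOP lists, so these are descriptions. EPOP replicate 1 had a peak in 24 of the 54 and replicate 2 in 13.

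**Figure D5:**
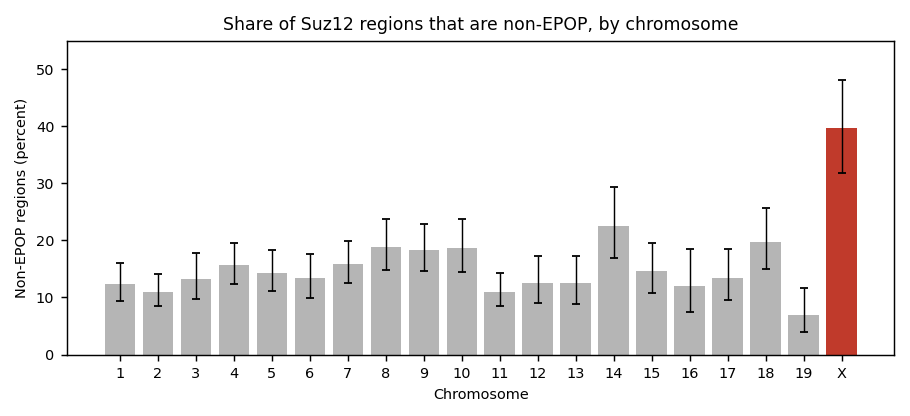
Share of the Suz12 regions of each chromosome that are non-EPOP (vertical axis, percent, Wilson 95% intervals). Chromosome X, in red, stands at 39.7%, above each autosome; the lists behind it also differ in their share of peaks on X.

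The X chromosome was also sparsely called in some of the libraries. Peaks on X made up 1.47% and 2.08% of the EPOP lists without knock-down, against 2.65% and 2.58% of the Suz12 lists. They made up 1.02% of the H3K27me3 list without knock-down and 2.54% of that upon EPOP knock-down. In the 54 non-EPOP regions on X, H3K27me3 was called in 11 without and in 28 upon EPOP knock-down. The 82 EPOP-bound regions on X moved the same way, from 37 to 71 calls, and the part that coverage of X in each library has in these counts was not tested. Leaving out X changed the H3K27me3 difference between non-EPOP and EPOP-bound regions little, to -42.2 points.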

How the data were processed

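Peak lists of 20 ChIP samples were analysed; 9 RNA samples and 1 IgG sample were not analysed here. The submitters' processing notes list Bowtie, TopHat, Cufflinks and mm9 with no role or version, and peak names carry MACS per the file headers. Each deposited peak has a score that the authors gave it; it was used to describe and rank peaks and to group regions. Depth was not given, so intervals cover counting of regions only. Groups followed the sample titles. Coordinates are mm9, counted from 1.

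Lists were merged and overlapped (1 bp) in Python 3.11.15 with NumPy 2.4.6, SciPy 1.17.1 and Matplotlib 3.10.9. Overlap counts of the deposited lists were checked against bedtools 2.31.1, and the differences in share on simulated calls. Shares carry Wilson and differences Newcombe 95% intervals. EloB counts were compared by a two-sided exact permutation test over lists. Named regions were the 5 per mark class with the highest lower Suz12 score, outside chromosome 18 and the mitochondrial sequence. Also named were the 3 nearest each side of the overlap rule and the highest 5 with EloB, with new Jarid2 or without Suz12 upon EPOP knock-down; the values of some are printed. The members, lists and comparisons were chosen with earlier results of these data known. New H3K27me3 calls, 10 bins of score and of width, the autosomes alone and the regions called in many lists were added after the data were seen.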

Additional observations from a re-analysis of the deposited data

How the results depend on the processing

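The differences in share kept their sign under each alternative tried, except that for Jarid2 without knock-down, which was 0.73 points (-0.72 to 2.18) within 4 bins and 1.36 points within 10 bins of the Suz12 score. The interval came to include 0 for H3K27me3 called again upon EPOP knock-down (-4.27 points) and Suz12 upon EloB knock-down (-1.96 points), both within 10 score bins. The number of non-EPOP regions depended most on the choices: 3071 with Suz12 regions of either list, 199 with the higher-scoring peaks alone, 140 without an EPOP peak of either list, and 240 (without EPOP replicate 2) to 2239 (without Suz12 replicate 1) when 1 replicate was left out, with 1770 without Suz12 replicate 2 and 755 without EPOP replicate 1. Some differences kept their sign and moved by over 1.5 times. With Suz12 regions of either list, Suz12 upon EPOP knock-down was -44.2, Suz12 upon EloB knock-down -43.7 and H3K4me3 -26.0 points. With the 140 regions without an EPOP peak, Suz12 upon EPOP knock-down was -23.2, H3K4me3 -15.0 and H3K27me3 called again -14.2 points. With the higher-scoring peaks alone, H3K27me3 called again was -6.49, Suz12 upon EloB knock-down -2.80 and H3K4me3 -11.1 points. Within 10 bins of width, Jarid2 without knock-down was -8.05 and new Jarid2 -14.1 points. The ratio of EloB counts was 3.29 with lists of equal length, which cut the lists without knock-down to the shortest list by score; the cause was not tested. It ranged from 0.667 to 1 when 1 replicate was left out. With the replicate number as a block, which here pairs lists made with the same antibody, it was 0.886 and changed no call. It was 0.5 for the higher-scoring peaks, from 1 and 1 regions against 0 and 1, and 0.667 for regions without an EPOP peak of either list, from 2 and 1 against 0 and 2. Single lists for H3K27me3 and Jarid2 and the unknown depth limit what the knock-down comparisons can show.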
